A study of Homo sapiens with 21 samples.

Results

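UBE2B-/- line 2, given in the labels as UBE2B-/- strain 2, was compared with wild-type cardiomyocytes (CM), both made from the established human induced pluripotent stem cell (iPSC) line PGP1. Both groups held 3 libraries of poly-A selected RNA, and the series as a whole held 21 libraries. Wild-type CM carried no edit. UBE2B-/- line 2 carried a CRISPR-Cas9 knockout of *UBE2B* in both alleles, was grown from a single picked colony, and is therefore 1 clone. CM of both genotypes came from the same protocol, in which the Wnt pathway is first activated with CHIR99021 and then inhibited with IWP4, and beating wells are purified with lactate. The mutant cells were plated at a higher number than the wild-type cells, and the RNA of the knockout came from beating cells, with wild-type CM matched to them in time. A replicate was a separate start of differentiation and held 2 wells differentiated together. Another group, UBE2B-/- line 1, an independently made knockout, entered the same model, so the model held 9 libraries in 3 groups.

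The rows described here are all transcripts that the authors' fitted table lists for line 2 against wild type. It listed 3134 transcripts out of 65457 tested, among 36579 listed rows over the 6 comparisons of the series. A listed transcript has a q-value (the p-value of Sleuth's Wald test after adjustment over all tested transcripts) of at most 0.05. The table gives, for each, the change between the groups with its standard error (SE), and not the value of each library. The group levels below were worked back from the fit as the mean of ln(estimated count + 0.5) over the 3 libraries of a group, returned to the count scale. The sequencing depth, the value in each library and the overlap of single libraries are not analysed here. A transcript was called lower or higher when it was listed and its change was at least 1.79-fold. Each gene was given the direction of its called transcript with the highest mean level. A transcript that is not listed was not shown to differ, and its level is not known from this table.

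UBE2B is an E2 ubiquitin-conjugating enzyme that, with the E3 ligase formed by RNF20 and RNF40 and its partner WAC, places a single ubiquitin on histone H2B (H2Bub1). The mark accompanies transcription by RNA polymerase II through gene bodies, and deubiquitinases such as USP22, held in the SAGA complex with ATXN7L3, remove it. A cardiomyocyte differs from the progenitors before it by its sarcomeres, by the sarcoplasmic reticulum that cycles calcium at each beat, and by a high capacity for fatty acid oxidation. Fibroblast-like and progenitor cells of the heart make most of its collagen-rich matrix.

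*UBE2B* itself had no listed transcript, so this table does not check the genotype by the level of the targeted gene, and its close homolog *UBE2A* had none either. Of 18 genes of the H2B ubiquitination machinery, 15 had no listed transcript. *ATXN7L3* rose (log2 change 0.93, SE 0.28, q-value 0.0277). A minor transcript of *USP22* was called lower (q-value 0.0358), with group levels that the fit does not resolve. The listed *WAC* transcript stood at 608 estimated counts in wild type and 979 in line 2, a log2 change of 0.69 (SE 0.22, q-value 0.0407), under the fold limit.

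Across all genes, more transcripts were higher in line 2 than lower. Of the transcripts tested, 1001 were called lower (1.53%) and 1609 higher (2.46%), and these percentages are the background for counts of transcripts. The number of genes tested is not known from the table, and a gene with many transcripts has more chances of a call, so the counts of genes below have no background of their own unit. They came from 726 genes called lower and 1288 called higher, or 36.0% and 64.0% of 2014 genes. In 56 genes, transcripts were called in both directions, and such a gene has the direction of its most abundant called transcript. The median log2 change was -1.60 among the lower transcripts and 1.73 among the higher ones, with a median SE of 0.41. A change of 4-fold or more was seen for 326 lower and 716 higher transcripts. Transcripts near zero in wild type were common among the higher ones. Group levels could be worked out for 2076 called transcripts, and wild type stood under 3 estimated counts for 272 of the 1212 higher ones (22.4%), while line 2 stood under 3 for 83 of the 864 lower ones (9.61%). For such transcripts the levels are given, and a fold is given only as a bound against 3 estimated counts. For 534 called transcripts the group levels are not resolved and the change alone is given. The Wald test treats the SE as known. When the ratio of change to SE was referred to Student's t with 6 degrees of freedom, 0 lower and 0 higher transcripts passed a q-value of 0.05, so every call here rests on the authors' Wald test in Sleuth. These are bulk libraries, in which fewer cells of a type and less RNA per cell cannot be told apart.

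**Figure D1:**
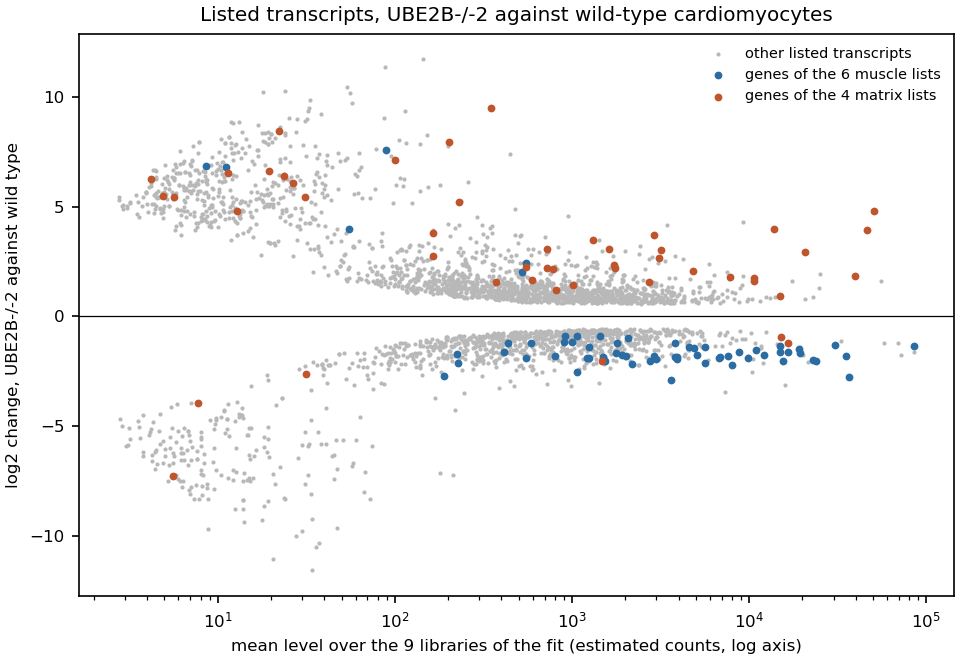
Each point is 1 listed transcript, by its mean level over the 9 libraries of the fit (estimated counts, log axis) and its log2 change in UBE2B-/- line 2 against wild type, with transcripts of the 6 muscle lists and of the 4 matrix lists in color. Muscle transcripts sit mostly below zero and matrix transcripts mostly above it.

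Base composition moved with direction over the whole table. The median GC content was 44% for 942 lower transcripts and 58.0% for 1501 higher ones that matched the GENCODE 44 annotation. Of called transcripts with a GC content up to 40%, 15.2% were higher, against 47.6% between 45 and 50% and 94.8% above 60%. Among chromosomes, chromosome 19 had 203 of 225 called transcripts higher (90.2%) with a median GC of 62.2%, and chromosome 6 had 42 of 103 higher (40.8%) with a median GC of 46.9%. Transcript length was near equal, with medians of 2669 bases for lower and 2536 for higher transcripts. The transcript that the annotation marks as canonical made up 31.3% of the lower and 47.8% of the higher transcripts, and retained-intron transcripts made up 7.54% and 4.60%. The GC content of each group of genes is therefore given beside it, and its part in the results was not tested.

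Called genes of the contractile apparatus were mostly lower. In 6 lists for the thick filament, the thin filament, the Z-disc, calcium cycling, the intercalated disc and the dystrophin complex, which together hold 117 genes, 64 genes were called, 58 lower and 6 higher, and the other 53 were not called. The median change of the lower genes was -1.78 on the log2 scale (quartiles -1.93 to -1.40), or 29.1% of the wild-type level, and all called genes had a median of 1.09. For 33 of the 58, the transcript that gave the direction was the canonical one. Lower genes outnumbered higher ones on both sides of a GC content of 50%. Among genes whose transcript had a GC content over 50%, 22 were lower and 3 higher, and at 50% or less 35 were lower and 1 higher.

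**Figure D2:**
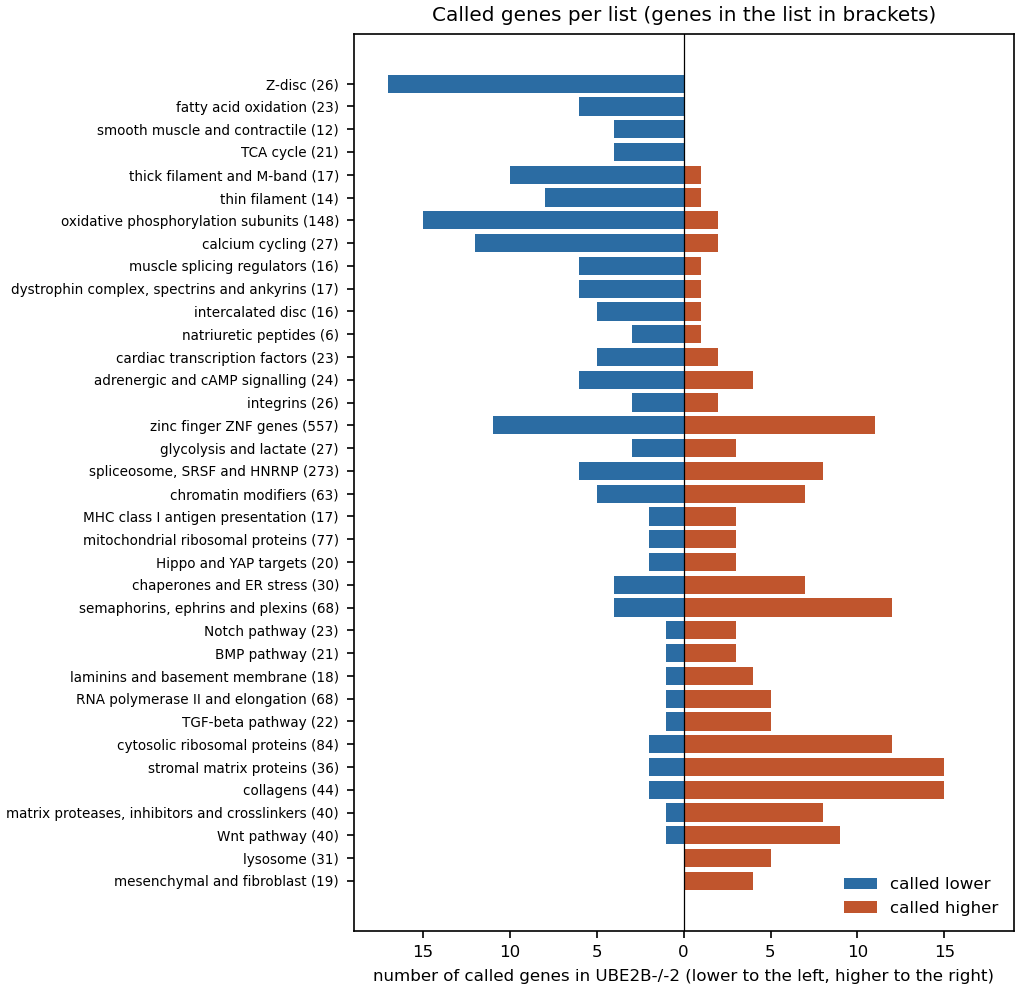
Bars give the number of genes called lower (to the left) and higher (to the right) in line 2, with the number of genes in the list in brackets. Lists with at least 4 called genes are shown, without the groups put together after their values were seen. The Z-disc list has 17 genes lower and 0 higher, and the collagen list has 2 lower and 15 higher.

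In the thick filament and M-band list, 10 of 17 genes fell and 1 rose. Titin (*TTN*), the spring from Z-disc to M-band, fell from 143479 to 21456 estimated counts (log2 change -2.74, SE 0.69, q-value 0.00411). Myosin-binding protein C (*MYBPC3*), which regulates cross-bridge cycling, fell from 36151 to 13068 estimated counts (log2 change -1.47, SE 0.38, q-value 0.00505). The light chains *MYL2*, of the ventricle, and *MYL4*, of the atrium and the embryonic heart, fell to 1383 from 10232 and to 21091 from 52655 estimated counts. *MYL7*, the atrial light chain, and *MYH6*, the atrial myosin heavy chain, were called lower through a transcript with no annotated coding sequence and a retained-intron transcript, at 6153 against 2677 and 501 against 116 estimated counts. *MYH7*, the ventricular heavy chain, was not listed. The muscle ubiquitin ligases *TRIM55* and *TRIM63* also fell, by 1.76 (SE 0.30) and by 1.68 (SE 0.48) on the log2 scale. *OBSL1*, a cytoskeletal linker related to obscurin, went the other way, at 213 in wild type and 1139.5 in line 2 (log2 change 2.42, q-value 1.2e-07).

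In the thin filament list, 8 of 14 genes fell and 1 rose. The subunits of cardiac troponin were among them, with *TNNT2*, which ties troponin to tropomyosin, falling from 25619.6 to 7490.2 estimated counts (log2 change -1.77, SE 0.42, q-value 0.00186). *TNNC1*, the calcium sensor, stood at 28509.7 in wild type and 9310.0 in line 2, and *TNNI1*, the inhibitory subunit of the fetal heart, at 3263 and 912, while the adult form *TNNI3* was not listed. Alpha-tropomyosin (*TPM1*) fell from 72256 to 20967 estimated counts (log2 change -1.78, SE 0.34, q-value 2.46e-05). Nebulette (*NEBL*), which binds actin near the Z-disc, stood at 38132 and 9263. Cardiac actin (*ACTC1*) stood at 142343 estimated counts in wild type and 56579 in line 2 through a transcript with no annotated coding sequence, with a q-value of 0.04. The 1 higher gene was *TNNT1*, slow skeletal troponin T, whose transcript was under 3 estimated counts in wild type and at 57.9 in line 2, at least 19.3-fold higher.

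The Z-disc list had 17 of 26 genes lower and none higher. *NEXN*, an actin-binding protein of the Z-disc, fell from 8877 to 2429 estimated counts (log2 change -1.87, SE 0.21, q-value 1.82e-15). Alpha-actinin 2 (*ACTN2*), the cross-linker that defines the Z-disc, stood at 16486 and 4719 (log2 change -1.80, SE 0.42). The PDZ-LIM proteins *LDB3* and *PDLIM5* fell by 1.62 and 2.20 on the log2 scale, and the calcineurin-binding protein *MYOZ2* by 1.95. *SMPX*, *CMYA5*, *MYO18B*, *PALLD*, *SYNPO2L*, *XIRP1* and *FLNC* also fell, within -2.16 to -1.35. Desmin (*DES*) was not listed.

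**Figure D3:**
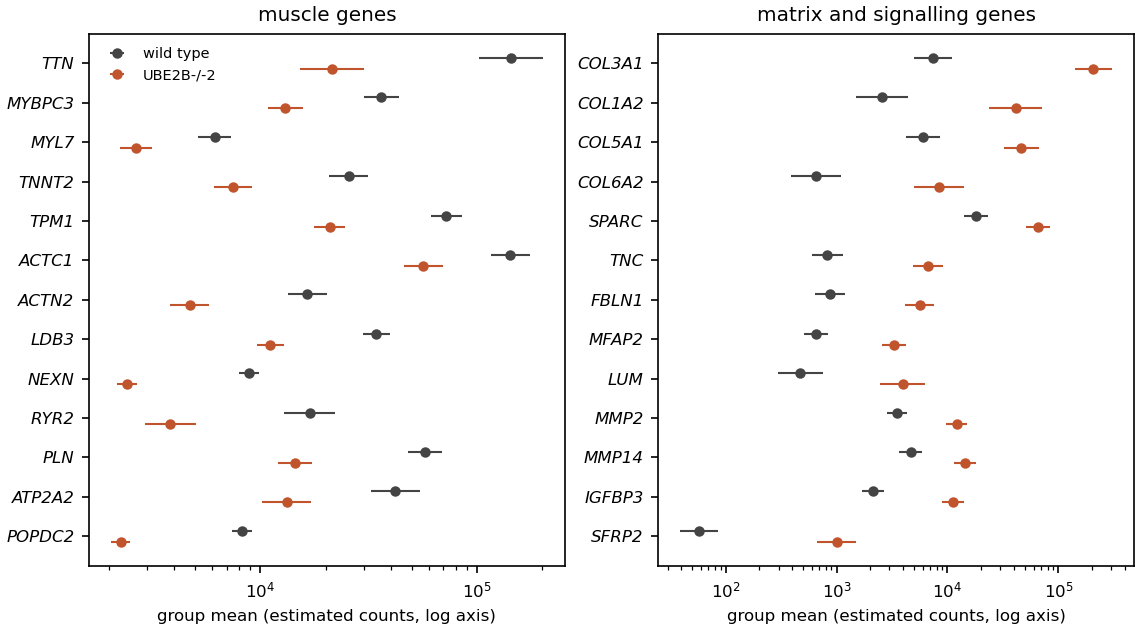
Points give the group mean of 3 libraries on the scale of estimated counts (log axis) for wild type and line 2, and bars the fit's SE of the change divided by the square root of the number of groups compared. The 13 muscle genes on the left stand lower in line 2 and the 13 matrix and signalling genes on the right stand higher, from *COL3A1* at 207028 against 7392 estimated counts to *SFRP2* at 1001 against 57.7.

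Calcium cycling genes fell with the sarcomere, with 12 of 27 lower and 2 higher. The ryanodine receptor (*RYR2*), which releases calcium from the sarcoplasmic reticulum, fell from 16877 to 3853 estimated counts (log2 change -2.13, SE 0.56, q-value 0.00638). Phospholamban (*PLN*), which restrains the calcium pump, fell from 57665 to 14464 estimated counts (log2 change -1.995, SE 0.37, q-value 1.81e-05). The pump itself, SERCA2 (*ATP2A2*), stood at 41962 and 13263 estimated counts with a q-value of 0.0397. *TRDN*, the anchor of the release complex, fell by 2.52, the exchanger *SLC8A1* by 1.61 and the L-type channel subunit *CACNA1C* by 1.90. The 2 higher genes were *SLN* (log2 change 3.998, SE 1.10), which encodes the pump inhibitor sarcolipin, and *CACNA1H* (2.02, SE 0.58), a T-type channel subunit. Of 16 potassium, sodium and pacemaker channel genes, *KCNH2* alone was called, lower through a retained-intron transcript at 1601 and 542.

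At the cell membrane, 5 of 16 intercalated disc genes fell and 1 rose. The Popeye domain proteins *POPDC2* and *BVES*, which bind cAMP, stood at 8215 and 14531 estimated counts in wild type and 2267 and 4082 in line 2. *CTNNA3*, an alpha-catenin of the disc, fell by 1.79, while *GJA1* and *DSP* were not listed. The higher gene was *TJP1*, of tight junctions, whose transcript stood at 1.46 in wild type and 381 in line 2. Of 17 genes of the dystrophin complex, spectrins and ankyrins, 6 fell, among them *DMD* at 7746 and 2238 and *LAMA2*, the laminin chain of muscle that dystroglycan binds, at 7539.7 and 1973, and 1 rose, a transcript of *DAG1* under 3 estimated counts in wild type and at 55.8 in line 2.

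Promoters of the lower muscle genes were read to show a sequence feature that the table did not use. The windows cover 250 bases before to 50 bases after each start site (RefSeq, GRCh38.p14), and the CArG box, bound by serum response factor, and the MEF2 motif were searched on both strands. Among the 46 of 58 lower muscle genes that matched a window, 4 held a CArG box (8.70%) and 7 an MEF2 motif (15.2%). In all 27305 windows the shares were 1.29% and 3.09%, in the windows of all genes called lower 2.07% and 4.82%, and in those of all genes called higher 1.18% and 0.69%. The 28 matched of 42 higher matrix genes held neither, and their shares of 0 rest on few windows. Muscle genes of the same lists that were not called held a CArG box in 2 of 39 windows and an MEF2 motif in 2. The stretches below, 5′ to 3′ on the strand of the gene with the motif in capitals, are 7 of the 11 that carry a motif in the lower muscle genes. The first 3 hold a CArG box and the others an MEF2 motif.
ACTC1 (chr15:34795624-34795683, minus strand): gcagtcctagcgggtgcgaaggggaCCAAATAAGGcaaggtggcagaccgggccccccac
LDB3 (chr10:86668429-86668488, plus strand): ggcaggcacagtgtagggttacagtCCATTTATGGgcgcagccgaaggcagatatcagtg
MYL7 (chr7:44141359-44141418, minus strand): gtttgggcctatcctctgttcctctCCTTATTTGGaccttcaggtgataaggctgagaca
MYBPC3 (chr11:47352762-47352821, minus strand): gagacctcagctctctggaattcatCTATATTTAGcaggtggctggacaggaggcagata
MYOZ2 (chr4:119135755-119135814, plus strand): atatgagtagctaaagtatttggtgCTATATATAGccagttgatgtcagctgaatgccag
ATP2A2 (chr12:110280530-110280589, plus strand): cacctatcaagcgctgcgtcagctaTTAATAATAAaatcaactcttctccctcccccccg
TTN (chr2:178807556-178807615, minus strand): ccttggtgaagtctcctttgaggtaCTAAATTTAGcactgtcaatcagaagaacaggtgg
These matches are letters in a window and are no evidence of binding. For CCAAT, a motif of many promoters, the share was 33.6% among genes called lower, 34.7% among genes called higher, 19.6% among the lower muscle genes, 17.9% among the higher matrix genes and 35.7% in all windows.

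Regulators of the muscle programme moved in both directions. Of 23 genes in a list of cardiac transcription factors and other regulators, 5 fell and 2 rose. Myocardin (*MYOCD*), the coactivator of serum response factor, fell from 10755 to 4122 estimated counts (log2 change -1.38, SE 0.20, q-value 3.45e-09). *MEF2A* and *MEF2C*, which activate sarcomere genes, stood at 9615 and 1462 in wild type and 2974 and 465 in line 2. The cardiac ankyrin repeat protein *ANKRD1*, also counted in the Z-disc list, fell from 49869 to 12392. The muscle methyltransferase *SMYD1* fell from 41859 to 12466. *GATA4* and *GATA5*, early cardiac GATA factors, rose from 544 to 1917 and from 155 to 908 (q-values 6.15e-06 and 0.0137). *NKX2-5*, *ISL1*, *HAND2*, *TBX5* and *TBX20* were not listed. Among 6 genes of the natriuretic peptide system, 3 fell and 1 rose. Atrial natriuretic peptide (*NPPA*) fell from 26994 to 2473 (log2 change -3.45, SE 0.66) and its activating protease *CORIN* from 2345 to 433. *NPPB* fell by 2.02 (SE 0.66). The clearance receptor *NPR3* rose by 5.47 (SE 1.64), through a transcript with a mean level under 50 estimated counts and group levels that are not resolved.

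Of 16 muscle splicing regulators, 6 fell and 1 rose. *RBM20*, which controls the splicing of titin, fell from 8814 to 2433 estimated counts (log2 change -1.86, SE 0.37, q-value 8.74e-05). *RBM24* and *QKI* fell by 1.68 and 1.29. *PTBP1*, which keeps muscle exons out of the transcript in other cells, rose from 2199 to 5482 estimated counts (log2 change 1.32, SE 0.26, q-value 9.21e-05). In the broader list of 273 spliceosome, SRSF and HNRNP genes, 6 were lower and 8 higher.

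Where a gene had many listed transcripts, they mostly moved one way. All 11 listed transcripts of *TNNT2* were lower, with log2 changes from -2.14 to -1.55, and all 6 of *TTN*, from -3.73 to -1.64. All 6 of *SPARC* were higher, from 1.84 to 7.41. *POPDC2* had 6 of 6 lower and *PAM*, which amidates peptides, 7 of 7. *ASB2* also had 6 of 6 lower, but these are 3 pairs with identical values, since the annotation carries the gene on an alternate contig as well. In all, 89 called transcripts shared their values with another transcript of the gene.

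Other genes switched between transcripts. *TPM1* had 4 transcripts lower and 2 higher, the latter including one at 788 in wild type and 2509.7 in line 2 (log2 change 1.67, SE 0.41). For alpha-spectrin (*SPTAN1*), the listed transcript with the highest wild-type level fell from 8186 to 3113 estimated counts, while the canonical transcript was under 3 in wild type and at 1950.3 in line 2, at least 650-fold higher. Another *SPTAN1* transcript was under 3 and at 646. *SLMAP*, a tail-anchored membrane protein of muscle, had 4 transcripts lower and 1 that went from under 3 to 201. The plasma membrane calcium pump *ATP2B4* rose from 554 to 2664 in a coding transcript, while a transcript subject to nonsense-mediated decay fell from 1531 to under 3. Transcripts of *ITPRID2*, *PDE4DIP* and *SORBS2* were also called both ways.

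The transcript with the smallest q-value in the table was of delta-catenin 1 (*CTNND1*), which stabilizes cadherins. It was under 3 estimated counts in wild type and at 1701 in line 2, at least 567-fold higher (q-value 2.14e-47). Transcripts of *MYADM* and *SRP68* went from under 3 to 327 and 297. Among transcripts with counts in both groups, *TPT1*, *TTYH3*, *FCGRT* and *NLGN2* had high ratios of change to error and rose by 2.22, 1.90, 1.97 and 2.43. In the other direction, the lowest q-values went to transcripts of *NEXN*, *PDLIM5* and *SH3BGR*, the last at 1642 and 338 estimated counts, and *JAK2* and *RAPGEF2* were also among the first 12, with log2 changes of -1.82 and -2.06.

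A small share of the genes of energy metabolism was called, mostly lower. Of 192 genes of fatty acid oxidation, the TCA cycle and oxidative phosphorylation, 27 were called, 25 lower and 2 higher, with a median of -1.05 among the lower ones, or 48.3% of wild type. Of the lower genes, 21 had a transcript with a GC content of 50% or less and 4 above it. For 9 of the 25 lower genes, the transcript that gave the direction was the canonical one. In fatty acid oxidation 6 of 23 genes fell, with *FABP3*, the fatty acid carrier of heart muscle, falling from 9587 to 3781 estimated counts (log2 change -1.34, SE 0.26, q-value 6.55e-05), and *PPARGC1A*, the coactivator that drives mitochondrial biogenesis, falling from 1978 to 703 estimated counts (log2 change -1.49, SE 0.30, q-value 0.000103). In the TCA cycle list 4 of 21 genes fell. *MDH1*, the cytosolic malate dehydrogenase and not the mitochondrial one of the cycle, stood at 15291 and 7392. *GOT1* fell by 0.85. *IDH3A*, of isocitrate dehydrogenase, was lower through a transcript with no annotated coding sequence, at 1975 and 818. *DLD* was lower through a transcript subject to nonsense-mediated decay. In oxidative phosphorylation 15 of 148 fell and 2 rose. The complex IV subunits *COX5A* and *COX7C* fell by 1.20 and 1.34, and the complex V subunits *ATP5F1C* and *ATP5PF* both by 0.97. *NDUFV3*, of complex I, rose from 166 to 1146 estimated counts (log2 change 2.78, SE 0.41, q-value 1.36e-08). Of 27 genes of glycolysis and lactate use, 3 fell, among them *ENO3*, the muscle enolase, and *SLC16A1*, a lactate transporter, and 3 rose, *PFKL*, *SLC2A1* and *GAPDH*, the last through a transcript that is not canonical. None of 7 genes for creatine kinases and myoglobin was called.

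Called genes of the extracellular matrix were mostly higher. In 4 lists with 138 genes (collagens, stromal matrix proteins, laminins and basement membrane, and matrix proteases, inhibitors and crosslinkers), 48 were called, 42 higher and 6 lower. The higher genes had a median log2 change of 3.06 (quartiles 2.08 to 5.46), or 8.34-fold, and 3.04 with genes near zero in wild type held at their bound. For 18 of the 42, the transcript that gave the direction was the canonical one, and for 32 its mean level was at least 50 estimated counts. These changes are of single transcripts and not of the whole gene. The medians of all called genes and of all higher genes were 1.09 and 1.61. Most higher genes had a GC-rich transcript, 34 with a GC content over 50% and 7 at or under it. The lower genes were 3 and 3. Higher genes thus outnumbered lower ones on both sides of 50%, with few genes at or under it.

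**Figure D4:**
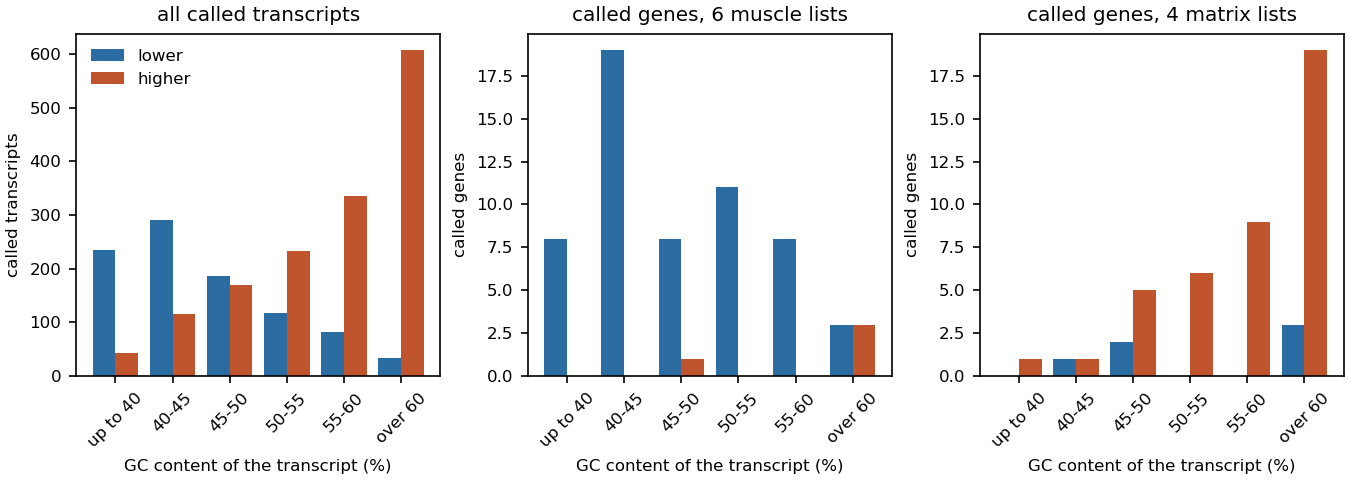
Bars count the called transcripts, the called genes of the 6 muscle lists and the called genes of the 4 matrix lists that were lower or higher in line 2, by GC content of the transcript (%). Over all called transcripts the higher share goes from 15.2% in the lowest bin to 94.8% in the highest, while muscle genes are lower in 22 and higher in 3 cases at a GC content over 50%.

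Of 44 collagens, 15 were higher and 2 lower, with a list median of 3.94 on the log2 scale (3.70 with genes near zero held at their bound). The fibrillar collagen *COL3A1* rose from 7392 to 207028 estimated counts (log2 change 4.81, SE 0.79, q-value 5.84e-07). *COL1A2* rose from 2572 to 41263 estimated counts (log2 change 4.004, SE 1.12, q-value 0.0127), and *COL1A1*, its partner in type I collagen, by 3.94 (SE 1.25, q-value 0.0379). *COL5A1*, which starts collagen fibrils, stood at 6044 and 46503. The type VI chains *COL6A1*, *COL6A2* and *COL6A3*, of microfibrils around cells, stood at 2134, 652 and 4.57 in wild type and 8911, 8448 and 3662 in line 2. The *COL6A3* values are of 1 transcript that is not canonical (log2 change 9.50, SE 2.24) and are not the level of the gene. *COL19A1* was lower, at 95.4 and 14.8, and so was a retained-intron transcript of *COL7A1*.

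Of 36 stromal matrix proteins, 15 rose and 2 fell, with a list median of 2.69. A retained-intron transcript of *SPARC*, which binds collagen, rose from 18057 to 65113 estimated counts (log2 change 1.85, SE 0.50, q-value 0.00995). The canonical *SPARC* transcript rose from 11480 to 43328 (log2 change 1.92, SE 0.49, q-value 0.0051). *TNC*, a matrix protein of developing and injured tissue, rose from 825 to 6659.5 estimated counts (log2 change 3.01, SE 0.65, q-value 0.000381). *FBLN1*, of elastic fibers and basement membranes, stood at 873 and 5617, and the small proteoglycan *LUM* at 473 and 3945. *MFAP2*, of microfibrils, rose by 2.35 and *LTBP3*, which holds latent TGF-beta, by 1.57. The lower pair were *FBN2*, the fetal fibrillin, at 31711 and 13538, and *LTBP1* at 4230.5 and 1048. Among 40 matrix proteases, inhibitors and crosslinkers, 8 rose and 1 fell. The gelatinase *MMP2* and its activator *MMP14* rose from 3503 to 12097 and from 4653 to 14424, *ADAMTS7* from 202 to 964, and *MMP15* fell by 0.94. Of 18 laminins and basement membrane genes, 4 rose, among them *AGRN* and *LAMB1* by 1.74 and 2.15, and a retained-intron transcript of the proteoglycan *HSPG2* was lower. The laminin chain *LAMA2*, which fell by 1.93, is counted in the dystrophin complex list and not in this one. Integrins were mixed, with *ITGA8* and *ITGA3* higher and *ITGB1*, *ITGB2* and *ITGA7* lower. The *ITGB1* transcript, which is not the canonical one, fell by 1.91 (SE 0.26).

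Called signalling genes were mostly higher, with 35 higher and 8 lower among 43 called genes of 192 in 6 lists (IGF, TGF-beta, BMP, Wnt, Notch, and the semaphorins, ephrins and plexins). The median of the higher genes was 1.84 on the log2 scale. Of these, 30 had a transcript with a GC content over 50% and 5 at or under it, and of the lower ones 2 and 4. In the Wnt list of 40 genes, 9 rose and 1 fell. Among the 9 were genes of the inhibitors *NKD1*, *SFRP2*, *SFRP5*, *DKK1* and *AXIN2*. *NKD1*, an intracellular inhibitor that the pathway itself induces, rose from 78.4 to 673 estimated counts (log2 change 3.09, SE 0.37, q-value 1.65e-13), the secreted inhibitors *SFRP2* and *SFRP5* from 57.7 to 1001 and from 852 to 3177, and *DKK1* by 1.60. The *AXIN2* transcript was under 3 estimated counts in wild type and at 70.8 in line 2. The ligand *WNT2B* stood at 1.56 in wild type and 1348 in line 2, and the transcription factor *LEF1* rose from 93.4 to 335. *DKK3* was the lower gene, through a transcript with no annotated coding sequence.

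In the IGF axis 3 of 18 genes rose and none fell. The ligand *IGF2* rose by 2.42 (SE 0.60), and the binding proteins *IGFBP2* and *IGFBP3* from 365 to 2866 and from 2138 to 11225. In the TGF-beta list 5 of 22 rose, with the ligand *TGFB1* at 1499 and 4276, the receptor *TGFBR1* at 185 and 457 and the repressor *SKI* at 1767 and 3631, and *LTBP1* fell. In the BMP list 3 of 21 rose, *ID1*, a target, from 419 to 1983, *BAMBI*, a decoy receptor, through a retained-intron transcript, and the ligand *BMP4*. The *BMP4* change of 7.85 (SE 2.56, q-value 0.0466) is of a transcript that is not canonical and is not the level of the gene. The group levels of that transcript are not resolved. The ligand *BMP7* fell from 5479 to 1881. The receptor *NOTCH3*, of mural cells, rose from 1385 to 8575 estimated counts (log2 change 2.63, SE 0.33, q-value 2.81e-12), *HES4* and *NUMBL* also rose, and a transcript of *NOTCH2* fell by 1.65.

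Of 68 semaphorin, ephrin and plexin genes, 12 rose and 4 fell. The ephrin ligand *EFNB2* and its receptor *EPHB4* rose from 513 to 2877 estimated counts (log2 change 2.49, SE 0.43, q-value 2.07e-06) and from 1382 to 4108 estimated counts (log2 change 1.57, SE 0.27, q-value 2.81e-06). *SEMA3F*, a secreted guidance cue, rose from 64.3 to 678 estimated counts (log2 change 3.39, SE 0.65, q-value 3.31e-05). *PLXNA4*, *EPHA7* and *NRP1* fell, the first from 4612 to 1146, and *EFNA5* had 1 transcript lower and 1 higher. Of 20 Hippo and YAP target genes, 3 rose and 2 fell, with *AMOTL1* at 1841 and 4941 and the receptor *AXL* at 1121 and 2749. The 24 adrenergic and cAMP genes divided into 6 lower and 4 higher. *AKAP6*, which anchors kinase A at the nuclear envelope of muscle cells, fell from 4406 to 1066 estimated counts (log2 change -2.05, SE 0.33, q-value 2.8e-07), and the phosphodiesterase *PDE3A* rose from 149 to 952 estimated counts (log2 change 2.67, SE 0.70, q-value 0.00694).

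In the lists for basic cell functions, called genes went both ways. Of 84 cytosolic ribosomal protein genes, 12 were higher and 2 lower with a list median of 0.96, and *RPL8* and *RPL13*, through transcripts that are not canonical, stood at 1541 and 1052 in wild type and 4393 and 3488 in line 2. *RPL8* also had 1 transcript lower. Reads of these genes can be shared with their many processed copies, so these values are uncertain. All 5 called lysosome genes of 31 were higher, among them cathepsin B (*CTSB*) at 2897 and 7413. Chaperones and genes of ER stress had 7 of 30 higher, with the ER disulfide isomerase *PDIA4* rising by 1.07, and 4 lower, with the cytosolic *HSPH1* falling by 1.16. Of 17 genes of MHC class I antigen presentation, 3 were higher and 2 lower. *FCGRT*, a relative of MHC class I that binds albumin and IgG, rose from 264 to 1036. All 5 listed transcripts of its light chain *B2M* were lower. One of them, subject to nonsense-mediated decay, stood at 3552 and 914. It shares its values with another of the 5, so these are not 5 separate measurements. Of 68 RNA polymerase II and elongation genes, 5 rose, with the Mediator subunit *MED25* at 255 and 797, and 1 fell. Of 63 chromatin modifiers, 7 rose, with the deacetylase *HDAC7* at 287 and 1408, and 5 fell. The 557 zinc finger genes had 11 in each direction, the 77 mitochondrial ribosomal genes 3 higher and 2 lower, and the 48 proteasome genes 1 in each.

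Few genes of cell division were called. None of 34 DNA replication genes was called, and of 35 mitosis genes *BIRC5* alone was, higher. Of 24 genes for D cyclins, CDK inhibitors, RB and MYC, 3 rose. The inhibitor *CDKN1C* rose from 89 to 1168 estimated counts (log2 change 3.71, SE 0.71, q-value 3.6e-05), the cyclin *CCND3* from 425 to 891, and a transcript of *CDKN2A* stood at 1.48 and 63.6. Of 23 p53 targets, *BAX* and *FDXR* rose by 1.001 and 1.15. *SLC1A5* and *CEBPB* rose and a transcript of *ASNS* fell among 21 genes of the amino acid response, and *SREBF1* rose while *SC5D* and *STARD4* fell among 21 of cholesterol synthesis.

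Markers of other cell types were then set beside these results. Of the cardiomyocyte markers, *TNNT2*, *ACTN2*, *MYL7* and *MYH6* were lower, the last 2 through transcripts that do not encode the protein, and *MYH7* and *NKX2-5* were not listed. Of 19 mesenchymal and fibroblast markers 4 were higher and none lower. *FSTL1*, *CDH11* and *TCF21* had log2 changes of 1.31, 2.35 and 3.61, and a minor transcript of *VIM* stood at 2.18 and 42.8 estimated counts. Of the 4, *FSTL1* alone had its direction from the canonical transcript. The transcripts of *TCF21* and *VIM* had a mean level under 50 estimated counts. The defining markers *PDGFRA*, *PDGFRB*, *THY1*, *TWIST1* and *SNAI2* were not listed. Of 11 epicardial markers, *SEMA3D* and *TCF21* were higher, and *WT1* and *TBX18* were not listed. Of 12 smooth muscle and contractile markers, 4 were lower and none higher, with *CNN1* at 726 and 202, and *ACTA2*, *TAGLN* and *MYH11* were not listed. The endothelial list of 15 had the receptor *KDR* higher, at 244 and 846, with *PECAM1* and *CDH5* not listed. The summed level of a marker list cannot be given, since levels of transcripts that are not listed are not known, and the part of cell makeup in the higher matrix genes was not tested.

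Few markers of other lineages were called. Of 15 epithelial markers, a retained-intron transcript of *KRT8* and a transcript of *EPCAM* were lower, at 5018 and 552.2 and at 463 and 8.81, while a coding transcript of *KRT8* stood at 294 and 862 and was called higher, as was a retained-intron transcript of *KRT18*. The hepatic list of 27 had a transcript of *FOXA1* higher, the neural list of 16 a transcript of *DCX*, and the HOX list of 39 *HOXC4*, all under 3 estimated counts in wild type and at 24.8, 86.5 and 27 in line 2. None of the 13 pluripotency, 13 skeletal muscle and 13 blood markers was called. Of 11 markers of the mesoderm stage, the apelin receptor *APLNR* rose from 18.3 to 1318 estimated counts (log2 change 6.14, SE 1.77) and the ligand *APELA* from 27.2 to 122.7, and *TBXT* was not listed.

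The stages of wild-type differentiation give a further description. The step from cardiac mesoderm (CMes) to cardiac progenitor (CP) uses none of the libraries of the present comparison. Of the transcripts lower in line 2, 11.6% were higher in CP than in CMes and 4.30% lower, and of those higher in line 2, 11.2% were higher and 3.73% lower. The background of that step was 3.8% higher and 2.63% lower. The step from CP to CM shares its wild-type CM libraries with the present comparison, so its values are given side by side only. For *RYR2* the log2 change from CP to CM was 5.11, for *ACTC1* 2.78, for *COL3A1* -2.02 and for *NKD1* -2.51, against -2.13, -1.33, 4.81 and 3.09 from wild type to line 2.

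UBE2B-/- line 1 shares the same wild-type libraries, so its changes are also set beside those of line 2 without a count of shared direction. For *TTN* they were -3.17 in line 1 and -2.74 in line 2, for *NPPA* -2.21 and -3.45, and for *PLN* -1.997 and -1.995. For *COL3A1* they were 3.51 and 4.81, for the retained-intron transcript of *SPARC* 1.56 and 1.85, and for *NKD1* 3.47 and 3.09. The second *TPM1* transcript that rose stood at 0.42 in line 1 and 1.67 in line 2. Of the listed transcripts of line 2, 1142 were not listed for line 1, which does not show that the lines differ. The difference between the lines was tested for the 2494 transcripts whose change in line 1 could be obtained, as the contrast of line 2 with line 1 in the same fit (normal test on the fit's SE, adjusted by Benjamini-Hochberg). It passed a q-value of 0.05 for 22 of them, and for 7 of the 209 among the genes chosen and reported here. All 2494 were in the test because they were listed for line 2, which favors a larger change in line 2. The 22 are therefore not an unbiased count of differences between the lines. Of the 7, 5 had been chosen because they were listed for line 2 and not for line 1, so the test restates that choice for them and the count of 7 is in part fixed by it. The 7 were lower in line 2, among them transcripts of *HMGB3*, a chromatin protein, at 157 estimated counts in wild type and under 3 in line 2, and of *ETV1*, an ETS factor, at 447 and under 3.

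**Figure D5:**
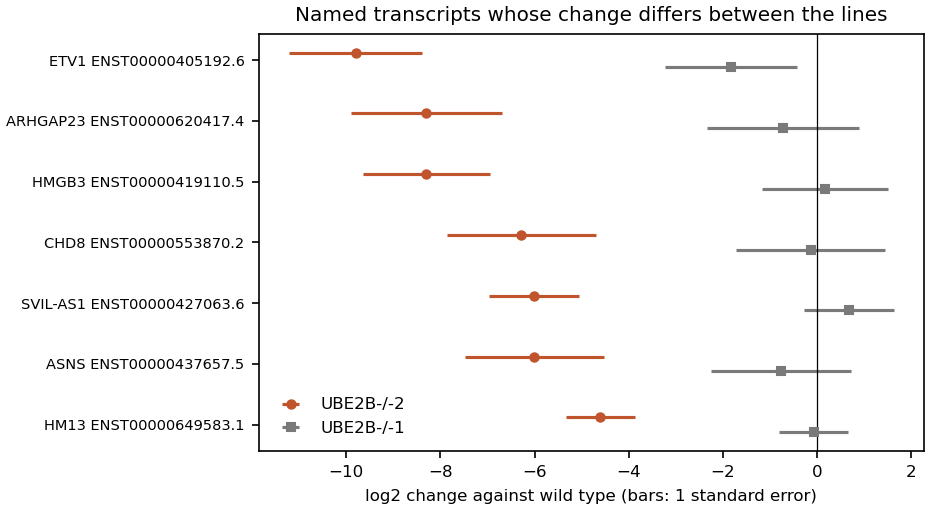
Points give the log2 change against wild type in UBE2B-/- line 2 and line 1 for the 7 named transcripts whose change differed between the lines, with bars of 1 SE. All 7 stand lower in line 2 than in line 1, and 6 of them were under 3 estimated counts in line 2, so that the size of their change rests on the 0.5 added before the logarithm.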

How the data were processed

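The authors trimmed the reads with FASTX, quantified transcripts against hg38 with Kallisto 0.45.0 and fitted a linear model per transcript with Sleuth 0.30.0. The deposited table of the line 2 comparison, per the file headers, holds the Wald test's p-value and q-value, the change and its SE on the natural log scale of the estimated count after adding 0.5, the mean of the estimated count on the natural log scale, and variance terms with no fixed range, treated as a score, that the authors' fit produced. These are fitted values over 9 libraries in 3 groups, with 3 libraries each, and not values of single libraries. Depth and counting intervals could not be derived, which leaves the SE as the only measure of precision, and the SE spans replicates that share a clone. These authors' own comparison columns were used because they are the data described here. The log2 change is the natural log change divided by ln 2.

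Python 3.11.15, pandas 2.3.3, numpy 2.4.6 and scipy 1.17.1 were used. Calls required q-values no higher than 0.05 together with a change of 0.58 on the natural log scale (1.79-fold, or 0.84 on the log2 scale). Group levels and the line 1 change were solved from the tables that share this fit. The equation for the line 1 change has 2 solutions. Where line 1 is listed, the nearer solution differed from the listed value by at most 8.42e-14. This checks the equation and not the choice between the solutions. For 502 transcripts not listed for line 1, the choice used the wild-type level or the limit for being listed, and it was not checked. Transcripts were matched to GENCODE 44 by identifier without its version (2943 of 3134), so a position, length or GC content may be of another version of the transcript. The calculations were tested on simulated data. In all, 57 gene lists were used, and the members and lists were chosen with earlier results of these data known. Genes were named by a rule of 5 parts: the ubiquitination list, the 12 largest ratios of change to SE in each direction, up to 4 genes per list in its main direction and up to 2 in the other, genes with the most transcripts or with transcripts in both directions, and transcripts listed for line 2 alone. Results for some genes are not reported here. Genes outside the rule were added after their values were seen as familiar members of a list, among them *MYL2*, *MYL4*, *LDB3*, *ACTN2*, *ACTC1*, *RYR2*, *ATP2A2*, *COL1A1*, *COL1A2*, *COL5A1*, *COL6A1*, *LUM*, *FBLN1* and *MMP14*.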

Additional observations from a re-analysis of the deposited data

Results flagged for a closer look

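A test of the difference between the lines singled out 7 transcripts among the genes chosen and reported here, all lower in line 2 than in line 1. The difference of line 2 minus line 1 in log2 change was -8.47 for *HMGB3*, -7.97 for *ETV1*, -7.58 for *ARHGAP23*, -6.69 for *SVIL-AS1*, -6.14 for *CHD8*, -5.23 for *ASNS* and -4.53 for *HM13*. The adjusted q-values of the difference ran from 5.03e-09 for *SVIL-AS1* to 0.047 for *ASNS*. In wild type these transcripts stood between 31.6 estimated counts for *ASNS* and 447 for *ETV1*, and in line 1 between 18.3 for *ASNS* and 179 for *HM13*. In line 2, *HM13* stood at 7.25 and the other 6 under 3. The 5 transcripts of *HMGB3*, *ETV1*, *ARHGAP23*, *SVIL-AS1* and *HM13* had been chosen because they were listed for line 2 and not for line 1, so for them the test restates the choice. Those of *ASNS* and *CHD8* had been chosen from gene lists by their ratio of change to SE in line 2. *HM13* is a retained-intron transcript, and none of the 7 is the canonical transcript of its gene. The line 1 change of all 7 was solved from the fit and not listed, by a choice between solutions that was not checked. Other transcripts of these genes are not compared here.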

How the results depend on the processing

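The counts of 1001 lower and 1609 higher transcripts (726 and 1288 genes) moved by over 1.5 times under 3 settings. A limit of 4-fold left 326 and 716 transcripts (273 and 592 genes), and a q-value limit of 0.01 left 579 and 886 (445 and 760 genes). When the ratio of change to SE was referred to Student's t with 6 degrees of freedom, and not to the normal distribution, 0 lower and 0 higher transcripts and 0 and 0 genes passed, although all 2610 called transcripts had an unadjusted p under 0.05 by that test, which the q-value limit already ensures. The Wald test takes the SE as known, and this setting takes it as estimated from 9 libraries. A lower or no fold limit, a mean of at least 50 estimated counts, each transcript's own variance (which by construction only shrinks the SE), the direction of the transcript with the largest change to SE, and genes with all calls one way kept each count within 1.5 times. Counting identical transcripts of a gene once, a setting chosen after seeing the data, gave 984 and 1579. Of 249 named transcripts, 183 kept their call at a q-value of 0.01 and 0 under the t distribution, and of 52 list medians 43 moved by less than the spread, 9 moved and 0 changed sign. No paired analysis was possible because the table holds no values of single libraries, and for the same reason leaving out each replicate was not run.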

Other observations

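Further groups of genes were put together after their values were seen and are given as descriptions. Of 37 mitochondrially encoded genes, 7 were lower and none higher, with a median log2 change of -1.28. *MT-ND3*, a subunit of complex I, stood at 49015 estimated counts in wild type and 11657 in line 2 (log2 change -2.07, SE 0.27), and *MT-ND2* and *MT-ATP8* at 138184 and 22619 against 40901 and 5987. Of 7 listed nuclear copies of the mitochondrial 16S rRNA gene (*MTRNR2L* genes), 6 were called lower, with a median of -1.49. No copy that is not listed is in this count, so it gives no share of the family. The copies are near-identical to the mitochondrial gene and to each other, so reads cannot be placed among them with certainty.

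Of 20 imprinted genes, 7 were higher and 1 lower, with a median of 2.14. *MEST* rose from 642 to 11498 estimated counts (log2 change 4.16, SE 0.87, q-value 0.000227), and *CDKN1C*, *IGF2*, *PLAGL1* and *MAGEL2* also rose. *SNRPN* had 2 transcripts higher and 2 lower, and *GNAS* 2 higher and 1 lower. *UBE3A*, counted as lower, had a transcript at 851 in wild type and 212 in line 2 and another, with the larger ratio of change to SE, under 3 in wild type and at 164 in line 2. Of 16 enzymes and chaperones that modify collagen, 6 were higher and none lower, with a median of 1.60. *P3H1* and *CRTAP*, which act as one complex on procollagen, stood at 709.9 and 673 in wild type and 3249 and 1867 in line 2, and the collagen chaperone *FKBP10* at 3867 and 12824. Of 16 genes of cell junctions and polarity, 10 were higher, with *NECTIN2* at 639 and 2634, *DSC3* at 452 and 2327 and the planar polarity gene *CELSR3* at 203 and 679.6.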
